A study of Homo sapiens with 6 samples.

Results

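The genes described here are 9 members of the NRF2 antioxidant pathway: NFE2L2, KEAP1, BACH1, HMOX1, NQO1, GCLC, GCLM, TXNRD1 and SRXN1. They were picked by gene symbol as the pathway's regulators and its standard target genes, and all 9 were found among the 28491 genes of the count table. HMOX1 is one of the lower genes that the study itself picked from these libraries, so its change is described below without a test. HCT116, a human colorectal carcinoma line of epithelial origin, was transfected with a Lipofectamine reagent and RNA was sequenced as 3 libraries of cells that received a control plasmid (NC) and 3 of cells that received a plasmid carrying RBM47 (RBM47-OE), with 48 h between transfection and harvest stated for the transfected cells. The plasmid is called pcDNA3.1-3xFlag-RBM47 in the labels and pIRES-hrGFP-1a in the methods. All libraries came from 1 cell line, and no source says whether the libraries of a group were separate cultures, so p-values measure only the spread between these libraries.

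NRF2, the protein encoded by NFE2L2, is a transcription factor that is kept scarce in resting cells. KEAP1 holds it for the CUL3 ubiquitin ligase, and oxidants or electrophiles that modify KEAP1 let NRF2 accumulate, pair with a small MAF protein and bind antioxidant response elements. BACH1 binds the same kind of element with a small MAF protein and represses, and heme releases it, which makes HMOX1 a classical BACH1-repressed gene. Much of this control acts on protein and is not read by mRNA levels.

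The letters of an exact form of such elements are shown because of which members held that form upstream. These were HMOX1, NQO1 and GCLC, which include the member farthest down in RBM47-OE, 1 that did not pass and 1 that rose. A looser core, given below for shorter windows, was found for KEAP1, TXNRD1 and GCLM. The 9 letters TGACTCAGC, which contain the AP-1 site TGACTCA, were searched on both strands from 10000 bases before to 1000 bases after the start of the canonical transcript. Matches were found for 3 of the 9 members, and 13.6% of the windows of 20038 protein-coding genes held at least 1. HMOX1 had 4 matches, at -9073, -9015, -8986 and -3936 bases from its start, GCLC had 1 at -3152 and NQO1 had 1 at -451. In the lines that follow (GRCh38, GENCODE 44 gene starts, read 5′ to 3′ on the strand named), capitals mark the match.
HMOX1, chr22:35372009-35372037, minus strand: ctcgggaccgTGACTCAGCaggaaaaaca
HMOX1, chr22:35372067-35372095, minus strand: accgggaccgTGACTCAGCgaaaacagat
HMOX1, chr22:35372096-35372124, minus strand: ctctagaccgTGACTCAGCgaaaacagac
HMOX1, chr22:35377146-35377174, minus strand: gaggcactggTGACTCAGCaaaatctagc
GCLC, chr6:53548239-53548267, plus strand: cgcctccccgTGACTCAGCgctttgtgcg
NQO1, chr16:69726997-69727025, minus strand: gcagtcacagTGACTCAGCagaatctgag
The looser core TGACNNNGC was searched in the RefSeq promoters (GRCh38.p14, 250 bases before to 50 after a start), which held 8 of the 9 members. Of 35116 promoters, 13.3% had the core on either strand, and so did 1 of the 2 KEAP1 promoters, both of TXNRD1 and that of GCLM. The single GCLM match, 30 bases before the start, is shown because GCLM has 1 promoter in the table.
GCLM, chr1:93909446-93909474, plus strand: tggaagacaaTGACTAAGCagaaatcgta
These matches describe the letters in these windows only. HMOX1 was not matched in the promoter table.

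The authors' counts of uniquely mapped reads summed to between 26792409 and 35477983 per library, and the members had between 527 and 22994 reads each in a library. The level of RBM47 was 1.91, 2.33 and 1.94 FPKM (fragment counts that the authors scaled by gene length and sequencing depth) in NC and 131.3, 130.4 and 127.0 in RBM47-OE, so the libraries carried what their labels state. All 6 epithelial markers checked (EPCAM, KRT8, KRT18, KRT19, CDH1 and CLDN4) were at 1 FPKM or more, with summed levels of 1939 to 2112 FPKM in NC and 1799 to 2039 in RBM47-OE. Of 4 colonic markers only CDX2 reached 1 FPKM. The 11 markers of leukocytes, fibroblasts and endothelium summed to 1.83 to 2.19 FPKM in NC and 1.62 to 2.0 in RBM47-OE. COL1A1 alone of them reached 1 FPKM, and PTPRC, COL1A2 and DCN were at 0 or not listed. Genes with GC-rich exons were lower in RBM47-OE relative to NC, and GC-poor genes higher. Across 16233 genes, which are not independent replicates, Spearman's rho between GC content and the log2 difference from NC was -0.41, -0.59 and -0.67 for replicates 1, 2 and 3, against -0.16 to 0.13 for each NC library set against the other 2. The trend moved with the groups, so trend and group cannot be told apart. Each member is therefore given with and without an offset that removes the trend (the GC offset).

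Fold changes are RBM47-OE over NC from edgeR's quasi-likelihood test on the counts of 16260 genes, with Benjamini-Hochberg adjustment over all of them. Of the 8 members other than HMOX1, 5 rose (NFE2L2, BACH1, TXNRD1, GCLC and GCLM), 1 fell (KEAP1) and 2 did not pass an adjusted p of 0.05 (NQO1 and SRXN1). Their median log2 fold change was 0.25, against 3.96e-05 for all genes tested. Of all genes tested, 19.1% rose and 16.9% fell by the same rule. Here and for the lists below, all genes were not matched in read depth, which affects how often small changes pass. With the GC offset, TXNRD1 alone of the 8 passed, where 5.97% of all genes rose and 8.57% fell, and the median of the 8 was 0.03. No gene among the 8 met the study's thresholds, an unadjusted p under 0.01 and a fold change over 1.5, which 2.38% of all genes tested met. Here and below these thresholds are applied to the edgeR fit. The study applied them to DESeq2, so the genes it called can differ. The number of higher members was 2 without NC replicate 2, and 3 without NC replicate 3 or RBM47-OE replicate 3. In depth-scaled reads (CPM), every RBM47-OE value of 4 members exceeded every NC value, which 23.2% of all genes tested did. The reverse held for 3 members, HMOX1 among them, and for 23.4% of all genes tested.

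**Figure D1:**
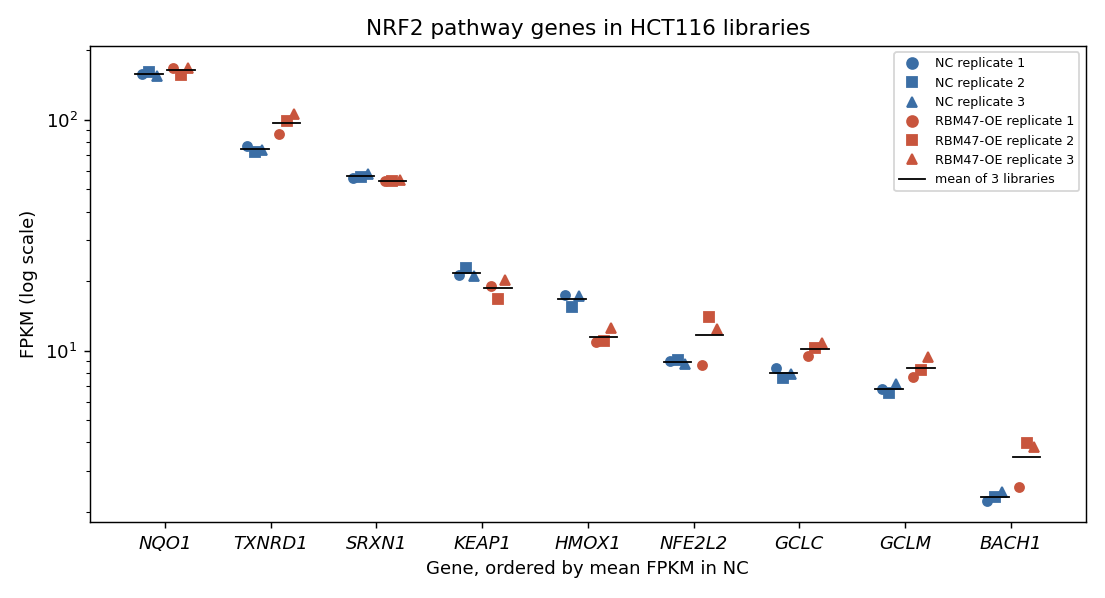
FPKM on a log axis of the 9 genes in the 3 NC (blue) and 3 RBM47-OE (red) libraries, with the replicate number given by the symbol and the mean of each group by a bar. NQO1 is the most abundant at a mean of 157.8 in NC and BACH1 the least at 2.33, and HMOX1 is the gene whose groups lie farthest apart downwards.

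NFE2L2 (ENSG00000116044; GRCh38 chromosome 2, 177218667 to 177392756, minus strand), the gene of NRF2 itself, measured 9.02, 9.08 and 8.76 FPKM in the NC libraries against 8.63, 13.97 and 12.39 in RBM47-OE. RBM47-OE replicate 1 lay below all NC libraries while replicates 2 and 3 lay well above them, so the groups overlapped. The log2 fold change was 0.30 (SE 0.10, adjusted p = 0.021 in edgeR). Its spread between replicates on the log2 CPM scale was 0.33 (SD, n = 3) in RBM47-OE, the widest of the 9 in that group, against 0.030 (SD, n = 3) in NC. Without RBM47-OE replicate 1 the log2 fold change was 0.48 (edgeR adjusted p = 4e-06), without replicate 2 it was 0.17 (adjusted p = 0.24), and without NC replicate 2, NC replicate 3 or RBM47-OE replicate 3 the adjusted p was 0.056, 0.074 and 0.093. The GC offset left 0.09 (95% confidence interval -0.08 to 0.26, edgeR adjusted p = 0.52), or 0.22 without RBM47-OE replicate 1 (adjusted p = 0.019).

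In GENCODE 44 the exons of NFE2L2 share 3509 bases with HNRNPA3, a splicing factor gene on the opposite strand. HNRNPA3 had 14031 to 19703 reads per library and rose by 0.23 (SE 0.071, edgeR adjusted p = 0.014; -0.10 and adjusted p = 0.30 with the GC offset). Whether the authors counted by strand is not stated, although both library kits named mark strand. The length implied by the deposited FPKM is 5670 bases for NFE2L2, against 14975 exonic bases in GENCODE 44, so the authors' model of this gene was shorter, and whether it held the shared stretch is not known. For the other 8 members the implied length was within 5 bases of that in GENCODE 44. NFE2L2 also shares 2037 exonic bases with a lncRNA on its own strand, which had 34 to 68 reads per library and which counting by strand would not separate. Of GCLC, 529 exonic bases are shared with a same-strand lncRNA at 0 to 7 reads. NQO1 shares 575 exonic bases and GCLC 305 with an antisense lncRNA, which had 21 to 42 and 8 to 21 reads per library. SRXN1 shares 2292 exonic bases with a protein-coding gene on its own strand that was not among the genes of the count table. The counts of SRXN1 are uncertain to that extent. BACH1 shares 302 exonic bases with a same-strand lncRNA and 45 with GRIK1 on the opposite strand, and neither was among those genes.

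KEAP1 (ENSG00000079999; chromosome 19, 10486125 to 10503558, minus strand), the adaptor that presents NRF2 for degradation, stood at 21.32, 22.80 and 21.00 FPKM in NC cells and at 19.11, 16.70 and 20.15 in RBM47-OE cells. Every RBM47-OE library lay below every NC library, and replicate 2 was the lowest. The log2 fold change was -0.29 (SE 0.079, edgeR adjusted p = 0.0060). Leaving out either replicate 2 library, NC or RBM47-OE, ended the call (adjusted p = 0.057 for each). After the GC offset the value was -0.07 (95% confidence interval -0.22 to 0.075, edgeR adjusted p = 0.55). Of the 9, KEAP1 has the highest exonic GC content.

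BACH1 (ENSG00000156273; chromosome 21, 29194071 to 29630751, plus strand), the repressor that competes with NRF2, was the least abundant member. It measured 2.24, 2.32 and 2.43 FPKM in the NC libraries against 2.57, 3.99 and 3.81 in RBM47-OE. The groups did not overlap, and replicate 1 of RBM47-OE stood close to NC, as it did for NFE2L2. BACH1 rose by 0.49 on the log2 scale (SE 0.11, edgeR adjusted p = 0.0016), a fold of 1.41, which was the largest rise among the 9 and lay just outside the study's fold threshold. The value after the GC offset was 0.20 (95% confidence interval 0.011 to 0.38, edgeR adjusted p = 0.15), and 0.31 without RBM47-OE replicate 1 (adjusted p = 0.012). With all 6 libraries and the offset, replicate 1 lay 0.06 under the NC mean and replicates 2 and 3 lay 0.34 and 0.28 above it.

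Ratios of the regulators' mRNA levels within a library did not overlap between the groups. The ratio of NFE2L2 to KEAP1 in FPKM was 0.42, 0.40 and 0.42 in NC and 0.45, 0.84 and 0.61 in RBM47-OE. The group means were 0.413 ± 0.013 (SD, n = 3) and 0.634 ± 0.193 (SD, n = 3). All RBM47-OE libraries were above NC, by little in replicate 1 and by much in replicate 2. The ratio of BACH1 to NFE2L2 was 0.25, 0.26 and 0.28 in NC and 0.30, 0.29 and 0.31 in RBM47-OE, again without overlap. Any full separation of 3 against 3 libraries has an exact two-sided permutation p of 0.1, the lowest possible, so this p adds nothing to the separation. KEAP1 and BACH1 did not overlap between the groups on their own. How often ratios of other gene pairs separate was not counted. The exonic GC content is 42.4% for NFE2L2, 39.9% for BACH1 and 63.4% for KEAP1, and the part of the GC trend in the ratios was not tested.

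HMOX1 (ENSG00000100292; chromosome 22, 35380361 to 35394214, plus strand) encodes heme oxygenase 1, the inducible enzyme that opens the heme ring and releases biliverdin, carbon monoxide and iron. It stood at 17.44, 15.45 and 17.29 FPKM in NC cells and at 10.85, 10.96 and 12.53 in RBM47-OE cells, on 1233 to 1426 and 875 to 933 reads. Its level averaged 16.7 ± 1.11 (SD, n = 3) in NC cells against 11.4 ± 0.940 (SD, n = 3) in RBM47-OE, and the lowest NC library was above the highest RBM47-OE library. The log2 fold change was -0.62 (SE 0.087), a fold of 1.54, just inside the study's threshold, and 2.42% of all genes tested had a lower value. Both places follow in part from how HMOX1 was picked. RBM47-OE replicates 1, 2 and 3 lay 0.66, 0.71 and 0.48 below the NC mean in log2 CPM, so replicate 1, close to NC for NFE2L2 and BACH1, was not so here. The GC offset brought the log2 fold change to -0.43 (SE 0.081), under the study's fold threshold, with replicates 1, 2 and 3 at 0.55, 0.51 and 0.22 below the NC mean. The exonic GC content of HMOX1 is 58.5%, above the median of 49.0% of all genes tested.

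None of the other 5 target genes among the members passed as lower in all 6 libraries. The ratio of HMOX1 to NQO1 in FPKM was 0.111, 0.096 and 0.112 in NC and 0.065, 0.070 and 0.075 in RBM47-OE. Its fall follows in part from how HMOX1 was picked. NQO1 (ENSG00000181019; chromosome 16, 69706996 to 69726668, minus strand) encodes a quinone reductase that is a widely used readout of NRF2 activity. It was the most abundant member, above 98.7% of protein-coding genes in NC, at 157.4, 161.0 and 154.9 FPKM in NC against 168.2, 156.1 and 167.3 in RBM47-OE. The groups overlapped, and the log2 fold change was -0.02 (95% confidence interval -0.16 to 0.13, edgeR adjusted p = 0.89). Scaled by library totals it was 0.05, and with the GC offset -0.13 (adjusted p = 0.19), which without RBM47-OE replicate 1 was -0.19 (adjusted p = 0.033).

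TXNRD1 (ENSG00000198431; chromosome 12, 104215779 to 104350307, plus strand) encodes the cytosolic thioredoxin reductase, a selenoprotein that keeps thioredoxin reduced. It measured 77.26, 72.69 and 73.98 FPKM in the NC libraries against 86.74, 98.97 and 105.9 in RBM47-OE, so that every RBM47-OE library was above NC. The mean went from 74.6 ± 2.36 (SD, n = 3) to 97.2 ± 9.68 (SD, n = 3), with a log2 fold change of 0.31 (SE 0.076, edgeR adjusted p = 0.0027). It kept its call with any library left out, and with the GC offset it was 0.25 (SE 0.064, edgeR adjusted p = 0.011). In that fit the adjusted p rose to 0.11 without NC replicate 2, to 0.056 without NC replicate 3 and to 0.054 without RBM47-OE replicate 3.

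SRXN1 (ENSG00000271303; chromosome 20, 646615 to 653200, minus strand) encodes sulfiredoxin, which repairs over-oxidized peroxiredoxins. It had the smallest coefficient of variation of the 9 in both groups, at 55.92, 56.74 and 57.91 FPKM in NC against 54.41, 54.03 and 54.69 in RBM47-OE. RBM47-OE lay below NC without overlap, by a small step of -0.14 on the log2 scale (95% confidence interval -0.27 to 0.0041, edgeR adjusted p = 0.12). Without RBM47-OE replicate 1 the adjusted p was 0.044, and with the GC offset the value was -0.03 (adjusted p = 0.77).

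GCLC and GCLM encode the catalytic and the modifier subunit of glutamate-cysteine ligase, the rate-limiting enzyme of glutathione synthesis. GCLC (ENSG00000001084; chromosome 6, 53497341 to 53616970, minus strand) stood at 8.40, 7.64 and 7.88 FPKM in NC cells and at 9.44, 10.26 and 10.81 in RBM47-OE cells. GCLM (ENSG00000023909; chromosome 1, 93885199 to 93909456, minus strand) measured 6.82, 6.57 and 7.16 FPKM in the NC libraries against 7.69, 8.22 and 9.35 in RBM47-OE. Both genes were above NC in all RBM47-OE libraries.

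GCLC rose by 0.28 (SE 0.073, edgeR adjusted p = 0.0042) and GCLM by 0.23 (SE 0.082, edgeR adjusted p = 0.033). The ratio of GCLC to GCLM overlapped between the groups, and its means were 1.17 ± 0.066 (SD, n = 3) and 1.21 ± 0.048 (SD, n = 3). The GCLC call was lost without NC replicate 2 (adjusted p = 0.053). That of GCLM was lost without NC replicate 1, 2 or 3 (adjusted p = 0.098, 0.17 and 0.061) and without RBM47-OE replicate 3, where the value was 0.14 (adjusted p = 0.19). After the GC offset GCLC was at 0.15 (edgeR adjusted p = 0.086) and GCLM turned to -0.09 (edgeR adjusted p = 0.40). Of the 9 members GCLM has the lowest exonic GC content, at 38.6%.

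**Figure D2:**
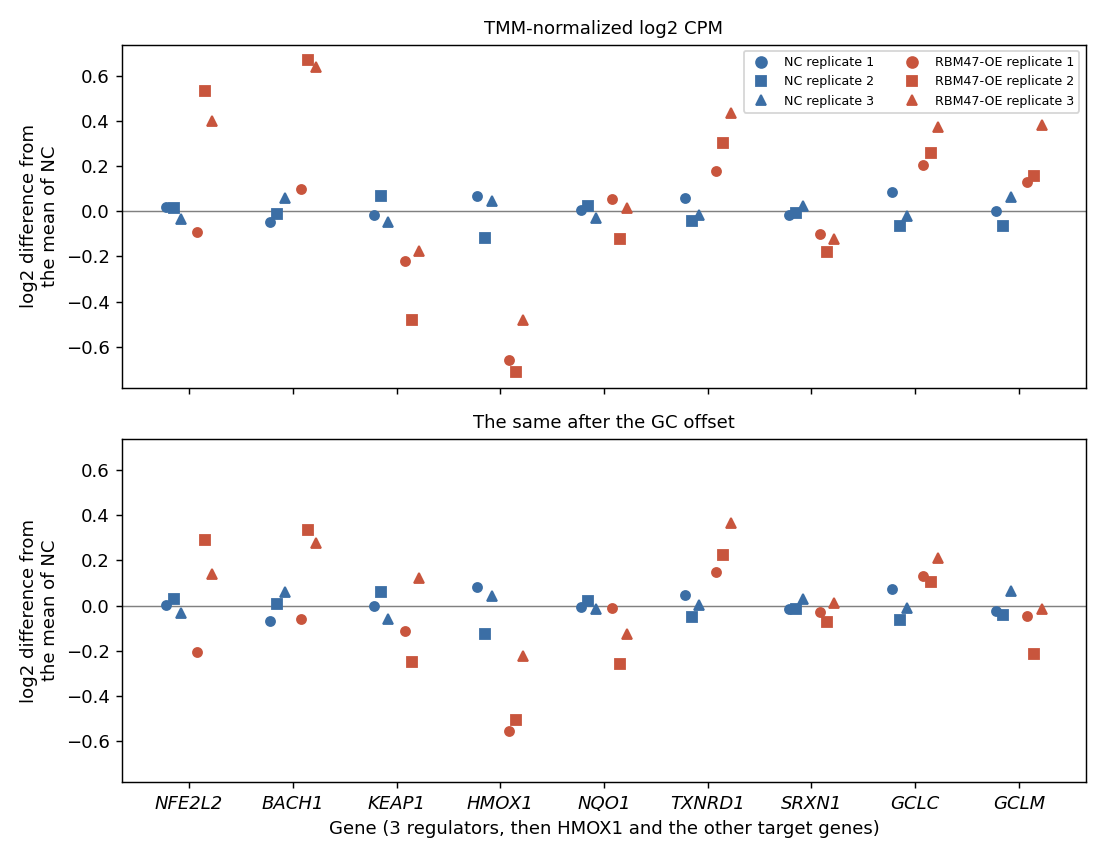
Log2 difference of each library from the mean of the NC libraries, in TMM-normalized log2 CPM (top) and after the GC offset (bottom), for NC (blue) and RBM47-OE (red). NFE2L2 and BACH1 split RBM47-OE replicate 1 from replicates 2 and 3, HMOX1 is 0.48 to 0.71 below the NC mean in all 3 at the top and 0.22 to 0.55 below it at the bottom, and TXNRD1 stays above.

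On the FPKM scale, which divides by gene length, the members ran in NC from NQO1 through TXNRD1, SRXN1, KEAP1, HMOX1, NFE2L2, GCLC and GCLM to BACH1, and no neighbours in this order overlapped between the 3 NC libraries. In RBM47-OE the upper end kept this order without overlap. HMOX1, at 10.85 to 12.53 FPKM, then overlapped with NFE2L2 at 8.63 to 13.97 and not with GCLC at 9.44 to 10.81. NFE2L2 also overlapped with GCLC and GCLM.

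The 5 genes that rose had exonic GC contents of 38.6% to 46.3%, and HMOX1 and KEAP1 had 58.5% and 63.4%. NQO1, at 44.8%, and SRXN1, at 51.7%, did not pass. Against the trend of all genes, HMOX1 lay below genes of similar GC content, at -0.43 with the GC offset. That place follows in part from how HMOX1 was picked. With the offset TXNRD1, BACH1, GCLC and NFE2L2 were at 0.25, 0.20, 0.15 and 0.09. KEAP1, NQO1, GCLM and SRXN1 were at -0.07, -0.13, -0.09 and -0.03. Of these members TXNRD1 alone passed.

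**Figure D3:**
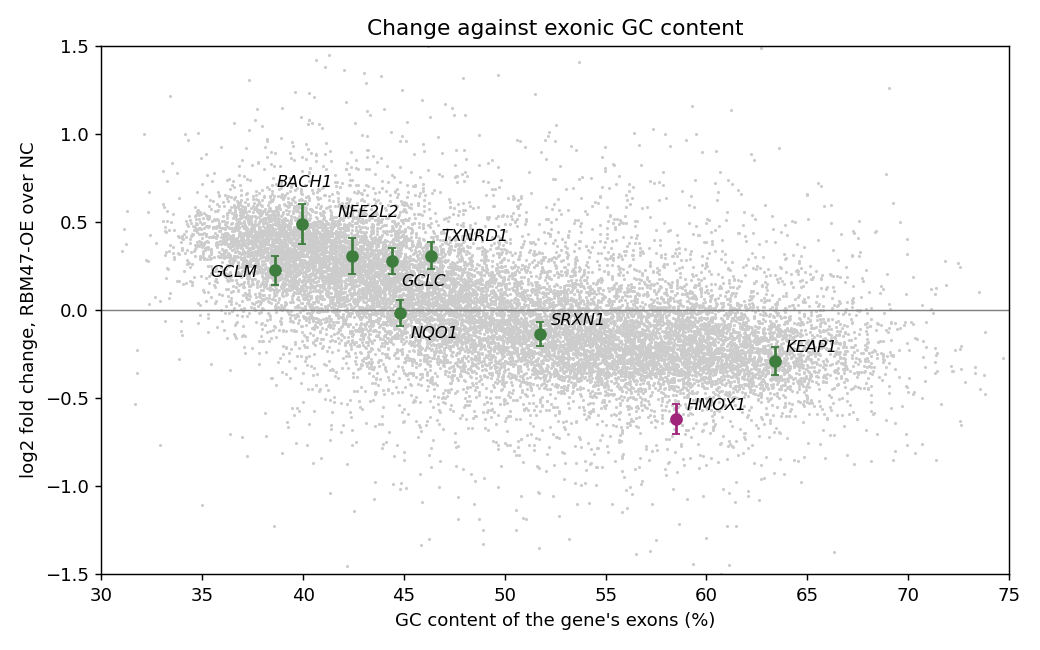
Log2 fold change of RBM47-OE over NC against the GC content of a gene's exons for 16233 tested genes (grey), of which 36 lie outside the window, with the 9 members as large points and bars of 1 SE. Grey points fall from left to right, and BACH1 at 0.49 is the highest member. HMOX1 (purple) at -0.62 lies below KEAP1 although its GC content is lower, a place that follows in part from how HMOX1 was picked.

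Beyond the members, 4 lists of related genes were read from the same fit. They hold 95 genes, of which 88 were tested; 17 rose (19.3%) and 32 fell (36.4%), beside the 19.1% and 16.9% of all genes given above. With the GC offset 7 rose (7.95%) and 22 fell (25.0%), beside 5.97% and 8.57% of all genes. With library totals 21 rose and 26 fell. Their median log2 fold change was -0.07, and -0.04 with the GC offset. The 17 higher genes were 10, 8 and 9 without NC replicate 1, 2 and 3 and 11 and 9 without RBM47-OE replicate 2 and 3, and the 32 lower genes were 21 without NC replicate 2.

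Of 35 other NRF2 target genes, 5 rose (14.3%) and 11 fell (31.4%), beside 19.1% and 16.9% of all genes. Their median was -0.03. With the GC offset 2 rose (5.71%) and 9 fell (25.7%), beside 5.97% and 8.57% of all genes. OSGIN1, an oxidative stress-induced growth inhibitor, was the only one to meet the study's thresholds, at 3.10, 3.88 and 3.48 FPKM in NC against 2.79, 2.26 and 2.21 in RBM47-OE, a log2 fold change of -0.60 (SE 0.11, edgeR adjusted p = 2.9e-04; -0.41 and adjusted p = 0.0057 with the GC offset). GSTP1, an abundant glutathione transferase, fell from 295.4 ± 7.45 (SD, n = 3) to 215.8 ± 20.7 (SD, n = 3) FPKM, by 0.52 on the log2 scale (edgeR adjusted p = 4.9e-05; -0.31 and adjusted p = 0.0017 with the GC offset). AKR1B10, an aldo-keto reductase, rose by 0.73 (SE 0.28, edgeR adjusted p = 0.041) at a level under 1 FPKM and did not pass with the GC offset (adjusted p = 0.072).

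Genes of the pentose phosphate pathway and of other routes to NADPH, the reductant that NQO1, TXNRD1 and glutathione reductase draw on, passed in both directions. PGD, TALDO1 and TKT, enzymes of the pentose phosphate pathway, fell by 0.35, 0.32 and 0.25 on the log2 scale (edgeR adjusted p = 0.0012, 0.0012 and 0.014). ME1 and IDH1, cytosolic enzymes that make NADPH from malate and isocitrate, rose by 0.28 and 0.42 (edgeR adjusted p = 0.0040 and 1.4e-04). After the GC offset PGD and TALDO1 still passed as lower and IDH1 as higher, whereas TKT was at -0.08 and ME1 at -0.02. IDH1 went from 24.13, 24.07 and 22.53 FPKM in NC to 30.36, 33.88 and 35.45 in RBM47-OE, and the groups did not overlap.

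The next list holds 21 genes for proteins that control or partner NRF2, or for relatives of NRF2 or BACH1. Of these, 5 rose (23.8%) and 7 fell (33.3%), beside 19.1% and 16.9% of all genes. Their median was -0.13. With the GC offset 3 rose (14.3%) and 4 fell (19.0%), beside 5.97% and 8.57% of all genes. The small MAF proteins are the obligate partners of both NRF2 and BACH1. MAFF fell from 8.04 ± 0.309 (SD, n = 3) to 6.01 ± 0.327 (SD, n = 3) FPKM, by 0.49 on the log2 scale (SE 0.079, edgeR adjusted p = 8e-05; -0.29 and adjusted p = 0.0032 with the GC offset). MAFK fell by 0.30 (edgeR adjusted p = 0.0066) and lost the call with the GC offset (-0.09, adjusted p = 0.36), and MAFG was at 0.02 (adjusted p = 0.84) and passed as higher with the offset (0.20, adjusted p = 0.021).

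CUL3, the scaffold of the ligase that KEAP1 serves, rose by 0.36 (edgeR adjusted p = 0.0012) and was at 0.01 with the GC offset. PALB2 and PGAM5, which can bind KEAP1, moved in opposite directions, at 0.55 and -0.42 (adjusted p = 0.0011 and 1.1e-04 in edgeR), and at 0.36 and -0.25 with the GC offset (adjusted p = 0.025 and 0.0051). Of the relatives of NRF2, NFE2L3 rose by 0.36 (SE 0.085, edgeR adjusted p = 0.0019; 0.28 and adjusted p = 0.0099 with the GC offset) and NFE2L1 fell by 0.20 (SE 0.068, edgeR adjusted p = 0.027; -0.02 and adjusted p = 0.86 with the offset). NFE2L3 stood at 8.53, 7.96 and 8.02 FPKM in NC cells and at 9.65, 11.08 and 12.42 in RBM47-OE cells. BACH2, at 0.42 to 0.59 FPKM, was at -0.20 (adjusted p = 0.32).

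Of 15 genes of heme synthesis, heme breakdown and iron storage, 1 rose (6.67%) and 5 fell (33.3%), beside 19.1% and 16.9% of all genes. Their median was -0.07. With the GC offset 1 rose (6.67%) and 2 fell (13.3%), beside 5.97% and 8.57% of all genes. HMOX2, the constitutive heme oxygenase, measured 17.79, 18.07 and 17.83 FPKM in the NC libraries against 14.01, 13.82 and 15.07 in RBM47-OE, close to the level of HMOX1. It fell by 0.39 (SE 0.073, edgeR adjusted p = 2.8e-04; -0.23 and adjusted p = 0.016 with the GC offset). The ratio of HMOX1 to HMOX2 was 0.98, 0.86 and 0.97 in NC and 0.77, 0.79 and 0.83 in RBM47-OE, without overlap. That separation follows in part from how HMOX1 was picked, and how often ratios of other gene pairs separate was not counted. UROD, a decarboxylase of heme synthesis, fell by 0.39 (edgeR adjusted p = 3.5e-04; -0.25 with the GC offset, adjusted p = 0.0073). ALAD, which makes porphobilinogen, rose by 0.29 (edgeR adjusted p = 0.026; 0.41 with the offset, adjusted p = 0.0040). The ferritin light chain gene FTL and biliverdin reductase B (BLVRB) each fell by 0.22 (edgeR adjusted p = 0.026 and 0.021) and were at -0.06 and -0.03 with the GC offset.

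Of 17 tested antioxidant enzyme genes outside the NRF2 target lists, 6 rose (35.3%) and 9 fell (52.9%), beside 19.1% and 16.9% of all genes. Their median was -0.19. With the GC offset 1 rose (5.88%) and 7 fell (41.2%), beside 5.97% and 8.57% of all genes. These shares were not matched for read depth, which affects how often small changes pass. TXNRD2, the mitochondrial counterpart of TXNRD1, moved the other way from it, at 2.47, 2.57 and 2.43 FPKM in NC against 1.96, 1.64 and 1.51 in RBM47-OE. The log2 fold change was -0.61 (SE 0.10, edgeR adjusted p = 1.4e-04; -0.45 and adjusted p = 0.0015 with the GC offset), and it was the only gene of this list past the study's thresholds. TXNRD3 was at 0.18 (adjusted p = 0.16). The glutathione peroxidases GPX1 and GPX4 fell by 0.43 and 0.44 (edgeR adjusted p = 1.9e-04 and 1.4e-04; each -0.22 with the GC offset, adjusted p = 0.014 and 0.013). PRDX2, a peroxiredoxin, fell by 0.42 (edgeR adjusted p = 3.1e-04; -0.25 and adjusted p = 0.0077 with the offset). GPX8 rose by 0.40 (edgeR adjusted p = 0.0017) and lost the call with the offset (0.10, adjusted p = 0.43).

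**Figure D4:**
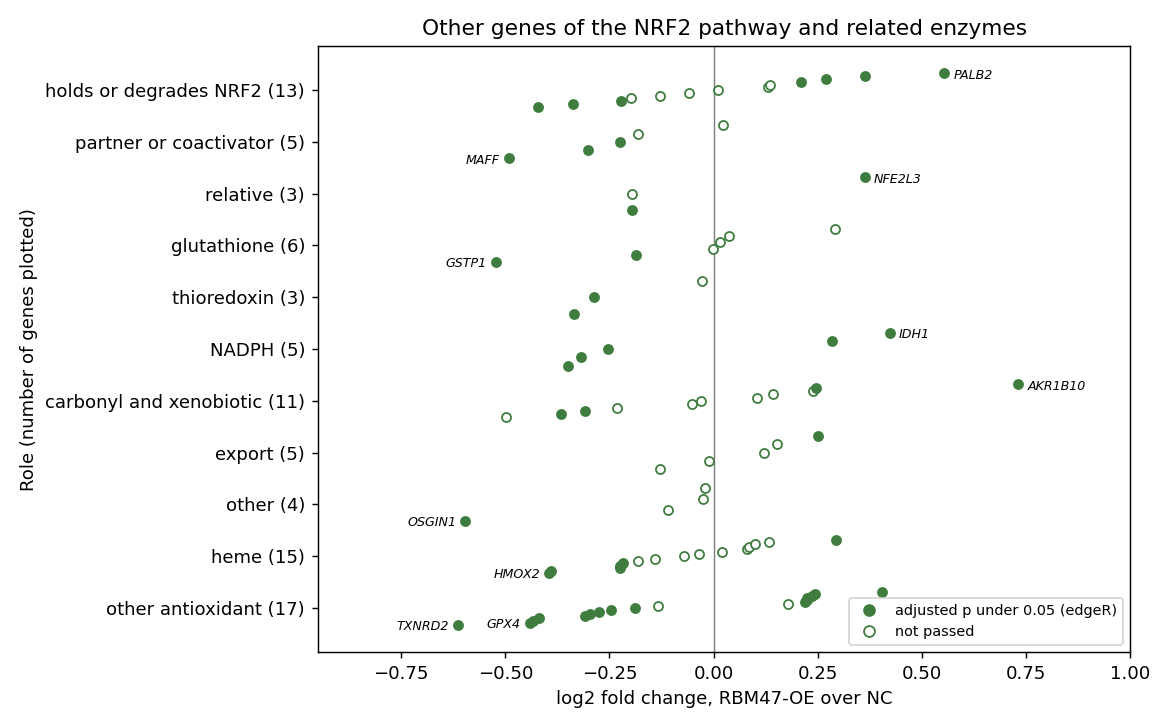
Log2 fold change of RBM47-OE over NC for 87 of the 88 tested genes of the wider lists, grouped by role, with filled points for an adjusted p under 0.05 in edgeR. The row named for holding or degrading NRF2 also contains genes of proteins that can bind KEAP1, such as PALB2 and PGAM5. Genes in the NADPH row, which includes pentose phosphate pathway genes, passed on both sides of 0, and OSGIN1, GSTP1, MAFF and TXNRD2 lie at the left.

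Among 12780 other genes with a mean log2 CPM of at least 1, the profiles closest to HMOX1 over the 6 libraries were those of PKD1P5, TNS4, TRPM2, PPRC1 and RP11-447L10.1, with root mean square differences of 0.043 to 0.075 on the log2 scale after centring each gene. PKD1P5 is a pseudogene with near-identical copies, so its counts are uncertain. For NFE2L2 they were TARS1, IFIT5, ATG4C, EIF2S2 and KLHL20, at 0.030 to 0.053. None of the 10 is a member or on the wider lists.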

How the data were processed

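RNA of 3 NC and 3 RBM47-OE libraries of HCT116 cells was used. The authors trimmed reads with FASTX-Toolkit, used HISAT2 for alignment to GRCh38, and deposited counts of uniquely mapped reads per gene, without normalization, and FPKM values, computed by the authors from the same reads. The counting tool and strand setting are not given in the sources used here. Library totals were 26792409 to 35477983 counts.

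Counts were tested with edgeR 4.0.16 (R 4.3.3): filterByExpr (minimum count 10, total 15), TMM, quasi-likelihood test, condition as the only term, Benjamini-Hochberg adjustment. SE is the log2 fold change over the square root of F. Log2 CPM used a prior count of 2. The GC offset is a loess (span 0.3) of each library on exonic GC content from GENCODE 44 (28402 of 28491 genes matched by identifier). DESeq2 1.42.0 and limma 3.58.1 on FPKM (log2 with a pseudocount of 1 or 0.1, genes averaging 0.1 FPKM or more) were alternatives. On simulated counts with 200 genes changed by a fold of 2, edgeR on 16083 genes recovered 200 with 10 false calls. With a simulated GC trend on 16059 genes it made 2779 false calls without the offset and 1 with it. That trend was the same in every RBM47-OE library and was the only GC-linked change. The simulated fold was also larger than that of any member. The simulation therefore checks the code and does not show which calls on the real libraries are false.

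The members and lists were chosen with earlier results of these data known. All members are named, with, from each list, genes past the study's thresholds, up to 5 with the largest change among those with an adjusted p under 0.05, and direct relatives of members. A gene named by this rule is not reported here. PGD, TALDO1, TKT, ME1, the overlapping HNRNPA3 and the upstream motif (the last of 3 forms searched) were chosen after values were seen. Replicate numbers were not taken as pairs.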

Additional observations from a re-analysis of the deposited data

How the results depend on the processing

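Of the members other than HMOX1, the 5 higher and 1 lower became 1 and 0 with the GC offset and with the GC offset and replicate block, 2 and 1 with the length offset, 4 and 0 with limma at a pseudocount of 1 or 0.1, 2 and 0 with limma without a filter, and 0 and 0 at the study's thresholds. With a library left out they ranged from 2 to 5 and from 0 to 2. All genes went from 3100 higher and 2740 lower to 971 and 1393 with the GC offset, 1043 and 1455 with the block added, 1410 and 908 with limma without a filter, and 245 and 142 at the study's thresholds. The lower genes were 1586 and 1599 with limma at the pseudocounts of 1 and 0.1. With a library left out the counts were 2090 to 3864 and 1675 to 3508. The share of higher among called genes was 53.1%, 41.1% with the GC offset and 66.2% with library totals (3693 and 1889), which shifted the median gene by 0.06. For the wider lists the 17 higher genes were 7 with the GC offset, 8 with the block added and 0 at the study's thresholds, and 8 to 21 with a library left out. Their 32 lower genes were 21 with limma on log2(FPKM + 1), 16 without its filter, 2 at the study's thresholds, and 21 to 35 with a library left out. The shares of higher were 34.7%, 24.1% with the GC offset and 44.7% with library totals. RBM47 ranged from 5.42 with limma to 5.998.

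NQO1 turned to 0.045 with library totals, 0.0306 with the length offset, and 0.0536, 0.0539 and 0.0536 with limma at a pseudocount of 1, of 0.1 and of 1 without a filter, and ranged from -0.0438 to 0.0348 with a library left out. GCLM turned to -0.0901 with the GC offset and -0.0922 with the GC offset and replicate block. With the GC offset and 1 library left out, an alternative chosen after seeing the data, GCLM was at -0.1011, -0.1116 and -0.0552 without NC replicates 1, 2 and 3 and at -0.1145, -0.0318 and -0.1279 without RBM47-OE replicates 1, 2 and 3. Without RBM47-OE replicate 2, NFE2L2 was then at -0.0215 and KEAP1 at 0.0058. HMOX1 ranged from -0.69 to -0.36 over all alternatives. NFE2L2 and KEAP1 did not pass with limma on log2(FPKM + 1) (adjusted p = 0.13 and 0.066), and NFE2L2, GCLC and GCLM did not with the length offset (adjusted p = 0.17, 0.051 and 0.055). With the replicate block 4 of these members were higher and 1 lower, and GCLM lost its call (edgeR adjusted p = 0.052). Same-numbered libraries did not deviate together (correlations of -0.06, -0.015 and -0.016). This cannot show whether they shared a culture or preparation, and the numbers are used here only to name the libraries. The cause of these changes was not tested.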
